A study of Mus musculus with 9 samples.

Results

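Non-clustered protocadherins were examined in 3T3 cells, a line of immortalised mouse fibroblasts of embryonic origin, in which the BAF nucleosome remodelling complex was depleted or left intact. The members were Pcdh1, Pcdh7, Pcdh8, Pcdh9, Pcdh10, Pcdh17, Pcdh18, Pcdh19 and Pcdh20, which are 9 of the 19698 genes measured on the arrays. A member is a row of the deposited table that the platform annotation assigns to that symbol alone. Where a symbol had more than 1 row, the row was chosen by its mean signal over all arrays, and this concerned Pcdh9, since the other 8 members had 1 row each. That mean level is no contrast between groups, but the family itself was picked from data whose results were already known, so the fall of Pcdh7 described here is not new support.

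The 9 arrays fell into 3 groups of 3. Unstimulated control cells carried no knockdown and received no TNF-α. TNF-treated control cells were given mouse TNF-α for 1 h at 5 ng per ml, and BAF-knockdown cells were given the same dose for the same time. The knockdown cells stably expressed a single short hairpin RNA against a sequence shared by Brg1 and Brm, the ATPases of the complex, from a U6 promoter in a retrovirus, and were sorted for high co-expressed GFP. The sources used here do not say whether the control cells carried a vector. With no group of unstimulated knockdown cells, the knockdown was examined in TNF-treated cells alone, and its effect on any TNF response could not be tested. Replicates were independent cultures of different days.

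Protocadherins are transmembrane proteins of the cadherin superfamily, which hold cells together and sort them by binding calcium-dependently to cadherins on neighbouring cells. The clustered protocadherins lie in tandem arrays and give neurons their surface identity, whereas the non-clustered members are genes outside these clusters. Most non-clustered members belong to the delta group, in which Pcdh1, Pcdh7 and Pcdh9 form a subgroup with a longer extracellular part, and Pcdh8, Pcdh10, Pcdh17, Pcdh18 and Pcdh19 a subgroup with a shorter one. They are best known from the developing nervous system, and several bind intracellular partners that act on the actin cytoskeleton.

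The promoters of the members that differed most between the groups are shown first, together with that of Pcdh18, which stayed high throughout. Each run is the stretch of 250 bases before the annotated transcription start, taken from RefSeq on build GRCm38.p6 and written 5′ to 3′ on the strand of the gene, with capitals marking CpG dinucleotides. The Pcdh7 run lies at chr5:57717831-57718080 on the plus strand, the Pcdh9 run at chr14:93890680-93890929, the Pcdh19 run at chrX:133688994-133689243 and the Pcdh18 run at chr3:49757317-49757566, the last 3 on the minus strand. For Pcdh9, which has a pair of nearly coincident annotated starts, the upstream start was used.
Pcdh7: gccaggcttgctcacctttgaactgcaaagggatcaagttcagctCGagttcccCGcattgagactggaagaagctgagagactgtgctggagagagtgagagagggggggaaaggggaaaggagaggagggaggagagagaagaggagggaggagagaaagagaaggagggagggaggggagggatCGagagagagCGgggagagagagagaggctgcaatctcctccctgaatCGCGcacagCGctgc
Pcdh9: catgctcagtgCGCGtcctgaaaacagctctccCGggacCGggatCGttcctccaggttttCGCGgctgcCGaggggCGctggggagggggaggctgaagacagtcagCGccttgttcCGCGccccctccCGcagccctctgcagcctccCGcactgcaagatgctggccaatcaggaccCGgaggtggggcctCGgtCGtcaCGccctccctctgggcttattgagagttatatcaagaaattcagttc
Pcdh19: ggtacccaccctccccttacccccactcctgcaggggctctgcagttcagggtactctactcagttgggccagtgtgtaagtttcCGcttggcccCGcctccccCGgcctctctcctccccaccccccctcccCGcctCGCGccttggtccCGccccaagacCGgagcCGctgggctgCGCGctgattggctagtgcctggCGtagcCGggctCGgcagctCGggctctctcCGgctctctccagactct
Pcdh18: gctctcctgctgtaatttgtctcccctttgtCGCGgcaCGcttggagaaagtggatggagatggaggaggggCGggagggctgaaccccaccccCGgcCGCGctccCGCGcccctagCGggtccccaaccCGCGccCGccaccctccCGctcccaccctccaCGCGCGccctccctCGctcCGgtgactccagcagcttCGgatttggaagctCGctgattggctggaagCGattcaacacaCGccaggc
The Pcdh7 run holds 7 CpG dinucleotides, the Pcdh9 run 18, the Pcdh19 run 16 and the Pcdh18 run 23. In Pcdh7 they lie on either side of a long stretch of purines, whereas in Pcdh18 they are spread over most of the run.

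A promoter sequence was found for 8 of the 9 members, Pcdh1 being the exception. In windows of 300 bases, 250 before the start and 50 after it, 5 of the 8 had a GC content above 50% and an observed-to-expected CpG ratio above 0.6, the limits that the study's methods use for CpG islands over a different window. Of all 32851 promoter windows in the reference table, 33.3% passed both limits. Pcdh10 and Pcdh17 had the highest ratio, 0.82 each, followed by Pcdh18 at 0.78, Pcdh8 at 0.64 and Pcdh9 at 0.62. Pcdh19 had a ratio of 0.54 with 67.7% GC, Pcdh7 one of 0.49 with 59.3% GC, and Pcdh20 one of 0.28 with 43.7% GC. Short motifs were searched on both strands, and a base may belong to matches of more than 1 of them. The TATA box, spelled TATAAA, was found in 1 of the 8 windows (Pcdh8) and in 13.6% of all windows. The AP-1 motif TGANTCA was found in 0 of the 8 and in 7.81% of all windows, and the E-box CANNTG in 2 of the 8 (Pcdh7 and Pcdh19) and in 72.3%. The CCAAT box was found in 7 of the 8, Pcdh7 being the exception, and in 37.4% of all windows. Such matches describe letters only and do not show binding.

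**Figure D1:**
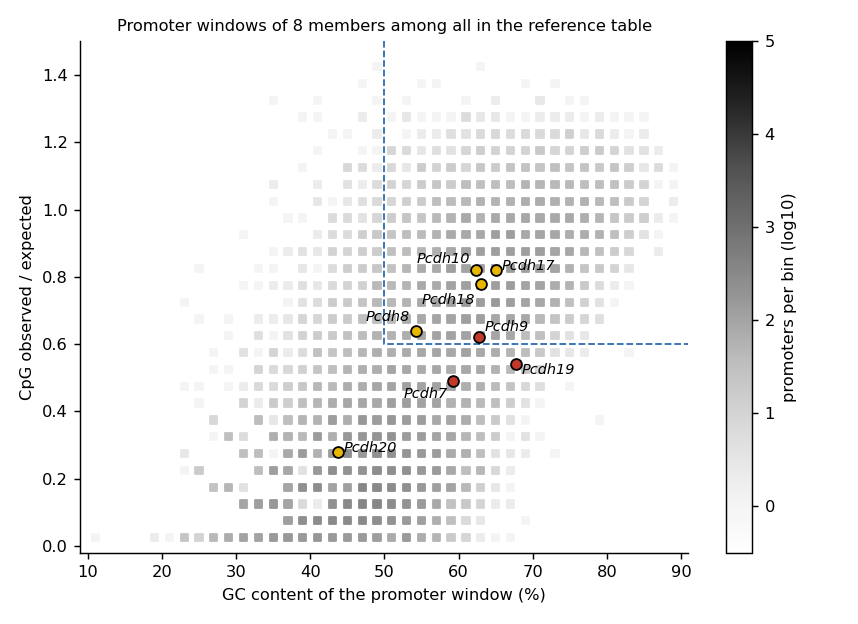
GC content in percent (x axis) and observed-to-expected CpG ratio (y axis) of the promoter windows of 8 members (circles) over all 32851 windows of the reference table (grey squares, darker with more windows per bin). The dashed lines mark 50% GC and a ratio of 0.6, and 2 windows with a ratio of 1.5 or more lie beyond the y axis. Red circles are Pcdh7, Pcdh9 and Pcdh19, of which only Pcdh9, at 0.62, lies inside the limits.

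Levels are RMA signals on the log2 scale, with the SD over the 3 arrays of a group, and each difference stands with its standard error from a limma fit. Called means an adjusted p, by Benjamini-Hochberg over all 19698 genes, under 0.05. Because the replicate numbers paired the arrays, limma was also fitted with that number as a blocking term, and its value is given where it changes a call. Array medians lay between 7.97 and 8.03 and first quartiles between 6.59 and 6.67. Signals depend on the probes of each gene, so levels are compared between groups and not between members. On the first principal component, which held 39% of the variance, knockdown array 2 lay at 4, nearer to the control arrays (-19.8 to 1.94) than knockdown arrays 1 and 3 at 17.8 and 22.6. Smarca4, which encodes Brg1, fell from 11.57 ± 0.04 to 10.46 ± 0.19 with the knockdown (2.15-fold, adjusted p = 0.00362), and its highest knockdown value, 10.64, was that of array 2. Smarca2, which encodes Brm, stood at 9.57 ± 0.22 and 9.21 ± 0.15, a difference of -0.36 ± 0.20 that was not called (adjusted p = 0.734, or 0.129 with the block). Its 3 knockdown arrays (9.12 to 9.38) lay below all TNF-treated control arrays, but the lowest of those was 9.39. Unstimulated control arrays 1 and 3 (9.18 and 9.22) lay within the knockdown range. By quantitative RT-PCR, the paper reports that the hairpin reduced both transcripts, each by a larger factor than on these arrays.

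The mean signal over 9 fibroblast markers was 11.83 to 12.08 in unstimulated control and 11.73 to 12.02 in TNF-treated control. In knockdown cells it was 11.39 to 11.61. All but Thy1 lay above the array median on every array, while Thy1 (7.36 to 7.65) lay below it on all 9. All 9 fibroblast markers had a knockdown difference below 0, as did 45.5% of all genes. With the block, 3 of the 9 were called lower, S100a4 (-1.18), Col3a1 (-0.93) and Pdgfra (-0.57), against 2.33% of all genes. Without the block none was called. At an unadjusted p under 0.05 in that limma fit, 3 were lower, S100a4, Col3a1 and Col1a2 (-0.29), against 4.75% of all genes. Markers of neurons, in which protocadherins are best known, averaged 7.29 to 7.35 over 8 genes in TNF-treated control and 7.19 to 7.26 in knockdown cells, with Map2 (-0.35) called lower with the block. Averages for 8 epithelial and endothelial markers were 7.0 to 7.12 and 7.06 to 7.15, and for 5 leukocyte markers 7.04 to 7.14 and 7.05 to 7.07. Of these non-fibroblast markers, Map2 (8.16 to 8.89), Krt8 (8.17 to 8.5) and Cd68 (8.07 to 8.44) lay above the array median on all 9 arrays. In these bulk samples, fewer cells of a kind and less RNA per cell cannot be told apart, and the part of the marker shifts in the results on the members was not tested.

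Pcdh7 and, in the blocked fit, Pcdh9 were called lower in BAF-knockdown cells, while the mean of Pcdh19 was lower without a call and Pcdh18 stayed high. Of the 9 members, 1 was called lower by limma (Pcdh7), 0 higher, and 8 were not called, against 0.102% of all genes called lower. With the block, 2 were called lower (Pcdh7 and Pcdh9) and 0 higher, against 2.33% of all genes. In 3 members (Pcdh7, Pcdh9 and Pcdh19) all knockdown arrays lay below all TNF-treated control arrays, as in 5.47% of all genes. The same 3 had a difference below -0.3, the limit that the methods set for genes depending on BAF, which 3.27% of all genes passed. The median difference of the members was 0.01, and so was that of all genes.

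**Figure D2:**
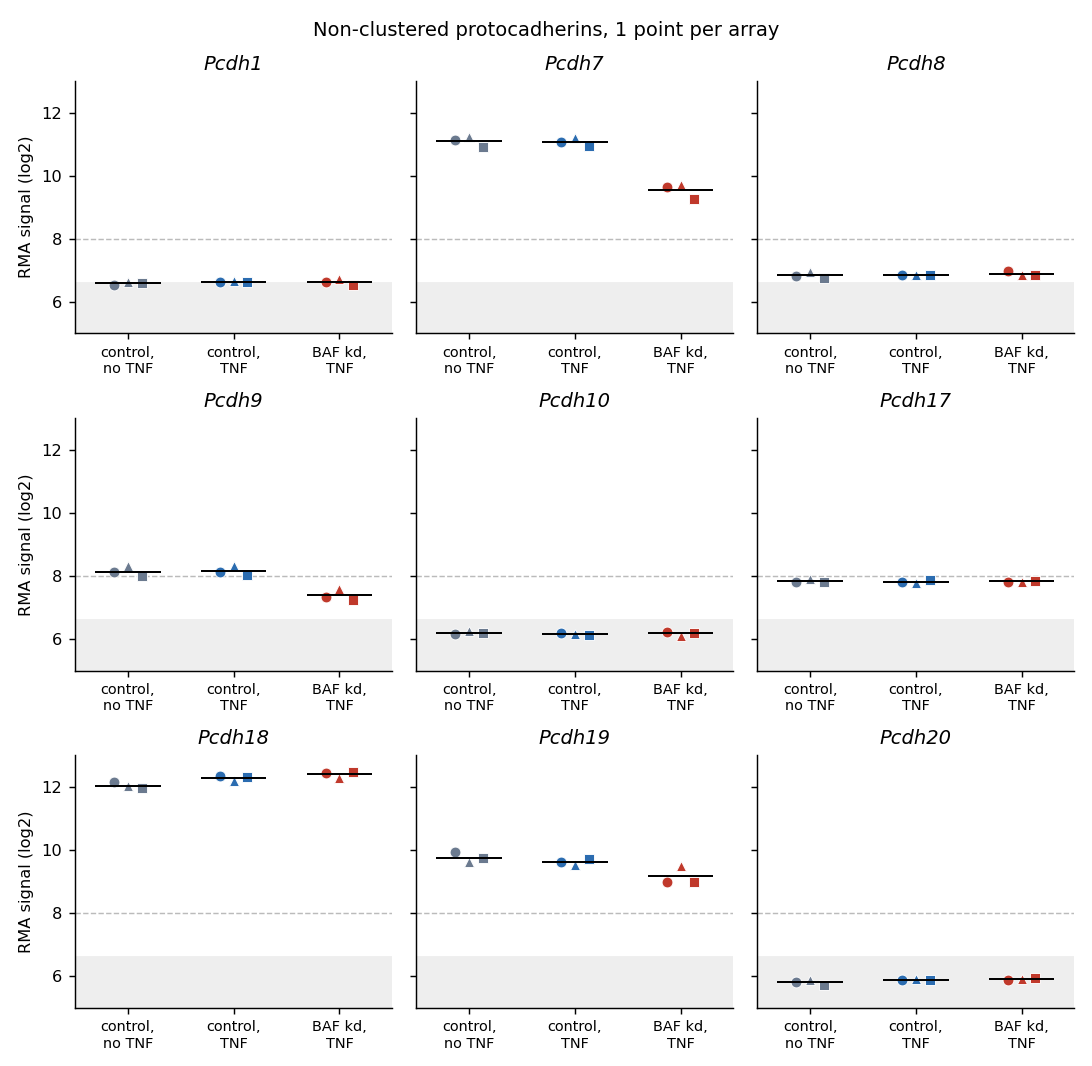
RMA signal on the log2 scale (y axis, shared by all panels, not starting at 0) of the 9 members in the 3 groups (x axis), each array drawn as 1 point (circles for replicate 1, triangles for 2, squares for 3) and a line at the group mean. The shaded band lies below the median first quartile of the arrays, and the dashed line is the median of the array medians. Pcdh7 drops from 11.07 to 9.54 between the TNF-treated groups, while Pcdh10 and Pcdh20 stay inside the band.

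Pcdh7 is a member of the subgroup with the longer extracellular part and is known to bind protein phosphatase-1 and the protein SET through its cytoplasmic tail. Its signal (transcript cluster 10521972) was 11.13, 11.22 and 10.92 on unstimulated control arrays 1, 2 and 3, and 11.08, 11.18 and 10.95 on the TNF-treated control arrays. In the knockdown it was 9.63, 9.70 and 9.27. All knockdown arrays thus lay far below all control arrays, whose ranges with and without TNF-α overlapped. Means were 11.09 ± 0.16, 11.07 ± 0.11 and 9.54 ± 0.23. The knockdown difference was -1.54 ± 0.12 with a 95% interval of -1.82 to -1.26, a 2.91-fold fall (adjusted p = 0.00362). Between arrays of the same number it was -1.45, -1.48 and -1.68. In limma fits without the block it was called with any single array left out, at adjusted p between 0.00322 and 0.0359. The call was lost in the blocked fit without the arrays numbered 1 (adjusted p = 0.0732), in which no gene was called. Knockdown array 2, which lay nearest to the controls on the first principal component, showed a fall of about the same size as array 1, and without it the difference was -1.62.

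Pcdh9, of the same subgroup as Pcdh7, gave the same pattern with a smaller log2 difference. On the 3 knockdown arrays it lay below the array median, and whether the falls of Pcdh7 and Pcdh9 differ in size was not tested. The Pcdh9 signal (transcript cluster 10421924) was 8.11, 8.30 and 8.01 in unstimulated control, 8.14, 8.31 and 8.02 in TNF-treated control, and 7.34, 7.58 and 7.23 in knockdown cells, in the order of the replicate numbers. Knockdown and control arrays did not overlap, and within each group array 2 was highest and array 3 lowest, as for Pcdh7. The means of 8.16 ± 0.15 and 7.38 ± 0.18 differed by -0.77 ± 0.11 (95% interval -1.03 to -0.52), a 1.71-fold fall that missed the threshold by limma (adjusted p = 0.056). With the block it was called (adjusted p = 0.000402), since the differences within replicate numbers were nearly equal at -0.80, -0.73 and -0.79. In the fit with no block it was called only when knockdown array 2 was left out (-0.87, adjusted p = 0.0175), while leaving out any other array gave 0.0607 to 0.241. The blocked call was lost without the arrays numbered 1 (adjusted p = 0.0916). A second transcript cluster for Pcdh9 (10421932), annotated with the same transcripts, lay at 8.19, 8.24 and 7.95 in TNF-treated control and at 7.13, 7.46 and 7.15 in knockdown cells. Its difference was -0.88 ± 0.12, with an adjusted p of 0.0492 over all 27024 rows, or 0.0017 with the block. Both clusters came from the same RNA samples, so this is a second set of probes and not a further replicate.

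Pcdh19 is an X-linked member of the other subgroup, known as an epilepsy gene and as a partner of N-cadherin. Its signal (transcript cluster 10606600) was 9.92, 9.62 and 9.73 in unstimulated control, 9.61, 9.51 and 9.72 in TNF-treated control, and 9.0, 9.50 and 8.98 in knockdown cells. Knockdown arrays 1 and 3 lay well below the controls, and array 2 lay just under the lowest TNF-treated control array. The difference of -0.45 ± 0.14 (95% interval -0.77 to -0.14) was not called by limma (adjusted p = 0.343, or 0.198 with the block). Within replicate numbers the differences were -0.61, -0.02 and -0.74. Whether Pcdh19 was called depended on knockdown array 2, as without it the difference was -0.62 (adjusted p = 0.0374) and, with all arrays numbered 2 left out of the blocked fit, -0.67 (adjusted p = 0.0198).

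Pcdh18, of the subgroup with the shorter extracellular part and known to bind the adaptor Dab1, was bright on all arrays and was called in neither direction. Its signal (transcript cluster 10498018) was 12.14, 12.02 and 11.95 in unstimulated control, 12.35, 12.20 and 12.32 in TNF-treated control, and 12.45, 12.27 and 12.47 in knockdown cells. TNF-treated control and knockdown arrays overlapped, and their difference was 0.11 ± 0.07 (95% interval -0.06 to 0.28, adjusted p = 0.819). The whole interval lay above the differences of Pcdh7 and Pcdh9.

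The remaining 5 members were dim on all arrays and differed little in any group. Pcdh20 (5.73 to 5.93) and Pcdh10 (6.11 to 6.24), known as OL-protocadherin and as a recruiter of the WAVE actin regulator, lay below the first quartile on all 9 arrays. Pcdh1 (6.53 to 6.72), best known from airway epithelium, did so on 4 arrays. Pcdh8 (6.77 to 6.97), the paraxial protocadherin of the embryo, and Pcdh17 (7.77 to 7.91), known from neurons of the basal ganglia, lay between the first quartile and the median on all 9. Exact values recurred between arrays, with 5 distinct values among the 9 arrays for Pcdh8 and 6 for Pcdh1 and Pcdh17. Knockdown differences lay between -0.01 for Pcdh1 and 0.04 for Pcdh8, and their 95% intervals stayed within -0.13 and 0.18. Whether these signals exceeded background was not tested, so a transcript present at a very low level, or a change in one, could not have been seen.

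**Figure D3:**
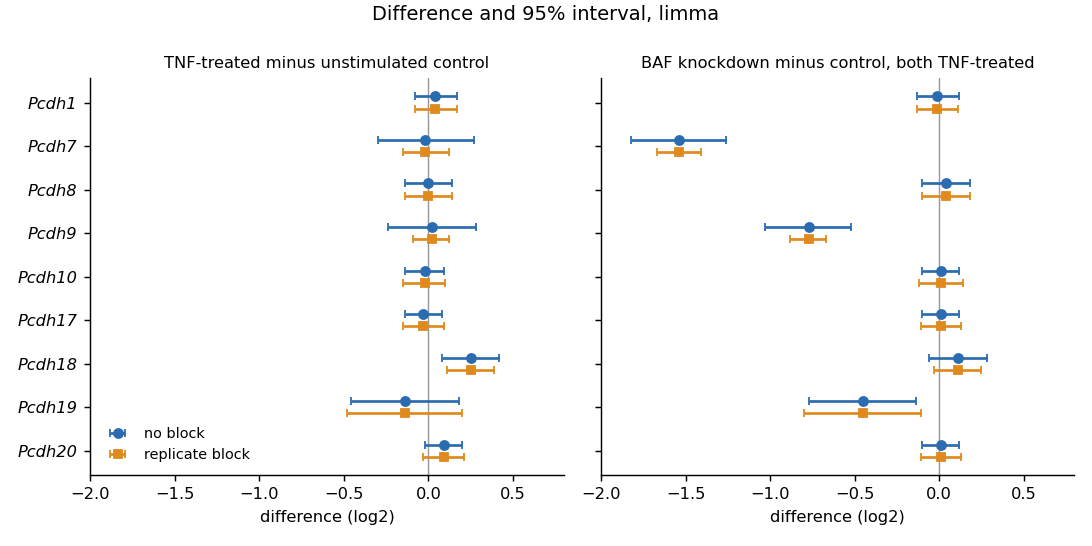
Difference on the log2 scale (x axis) for each member (y axis), TNF-treated minus unstimulated control cells on the left and BAF knockdown minus control, both TNF-treated, on the right. Points are limma estimates with 95% intervals, without (circles) and with the replicate block (squares), from 3 arrays per group. On the right, the intervals of Pcdh7, Pcdh9 and Pcdh19 lie below 0, at -1.54, -0.77 and -0.45.

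TNF-α called none of the members within 1 h in control cells. The count was 0 of 9 by limma, against 0.137% of all genes called higher, and 0 with the block, against 0.366%. It was also 0 by the methods' t-test, but its minimum difference of 0.35 alone excluded every member, the largest difference being 0.25 for Pcdh18. In the limma fit, 1 member, Pcdh18, was higher at an unadjusted p under 0.05, as were 1.85% of all genes. All TNF-treated arrays lay above all unstimulated arrays for Pcdh18 and Pcdh20, as for 3.19% of all genes, and for 0 members did they all lie below. Pcdh18 stood at 12.04 ± 0.10 and 12.29 ± 0.08, a 1.19-fold difference of 0.25 ± 0.07 (95% interval 0.08 to 0.42), with adjusted p = 1 and, with the block, 0.322. It was higher in each of the 3 replicate numbers, by 0.21, 0.18 and 0.37. For Pcdh20 the difference was 0.09 ± 0.05 at its dim level. For the members that were lower in the knockdown, TNF differences lay within their error. Pcdh7 differed by -0.02 ± 0.12 (95% interval -0.30 to 0.27), Pcdh9 by 0.02 ± 0.11 and Pcdh19 by -0.14 ± 0.14 (95% interval -0.46 to 0.18).

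**Figure D4:**
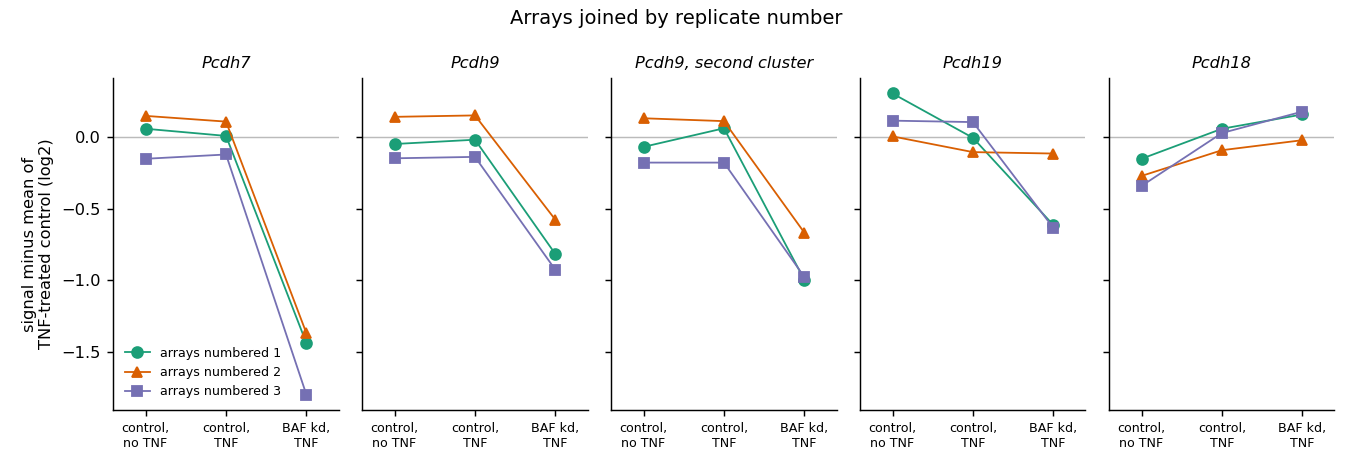
Signal minus the mean of the TNF-treated control arrays on the log2 scale (y axis) in the 3 groups (x axis) for Pcdh7, both transcript clusters of Pcdh9, Pcdh19 and Pcdh18, with arrays of the same replicate number joined. Arrays numbered 1, 2 and 3 run nearly in parallel for Pcdh7 and Pcdh9, and for Pcdh19 the arrays numbered 2 stay level (-0.02 between the TNF-treated groups).

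Over the 9 arrays, Pcdh7 and Pcdh9 correlated at r = 0.98, and at 0.87 after the group means were taken away. Pcdh19 correlated with Pcdh7 at 0.84 and with Pcdh9 at 0.82, but only at 0.28 and 0.27 after the group means were taken away. These are descriptions over arrays that share groups and replicate numbers. Among all genes, the 8 whose signal followed that of Pcdh7 most closely over the 9 arrays were the netrin receptor Unc5c (r = 0.996), the sorting receptor Sort1, Smarca4 (both 0.987), the collagen Col12a1 and the matrix protein Postn (both 0.984), Pcdh9 (0.98), the syndecan Sdc1 (0.979) and Eml1 (0.978). Choosing genes by this likeness fixes that they were lower in the knockdown, and their differences ran from -1.89 for Unc5c to -0.42 for Eml1. The genes most like Pcdh19 were others, led by Lgalsl (0.986), Mex3d (0.983) and Rap2a (0.98), and none of its 8 was called in the knockdown in either fit.

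The wider cadherin superfamily was examined through lists. Of the 5 other non-clustered protocadherins and protocadherin-related genes, Pcdh11x, Pcdh12, Pcdh15, Cdhr1 and Cdhr2, 0 were called in the knockdown in either fit, 0 passed an unadjusted p of 0.05, and the differences lay between 0.01 and 0.12. Of 58 clustered protocadherins listed, 22 were measured, all of them of the beta cluster, and the other 36 were not analysed here. Of these 22, 0 were called by limma, while 10 were lower and 0 higher by unadjusted p under 0.05 (4.75% and 3.69% of all genes), and 6 were called lower with the block, against the 2.33% of all genes given above. Their median difference was -0.22, and 21 of the 22 lay below 0, as did 45.5% of all genes. Pcdhb9 fell from 7.61 ± 0.55 to 6.73 ± 0.50 (-0.87 ± 0.39, blocked adjusted p = 0.0035), Pcdhb17 from 8.83 ± 0.25 to 8.10 ± 0.15 (-0.73 ± 0.15, 0.00126) and Pcdhb16 from 9.95 ± 0.26 to 9.40 ± 0.17 (-0.55 ± 0.19, 0.00869). In each of these 3 the arrays numbered 2 were highest and those numbered 3 lowest in every group, as for Pcdh7 and Pcdh9. Beta protocadherins are close copies of each other, so probes may respond to more than 1 of them, and the 22 values are not independent.

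**Figure D5:**
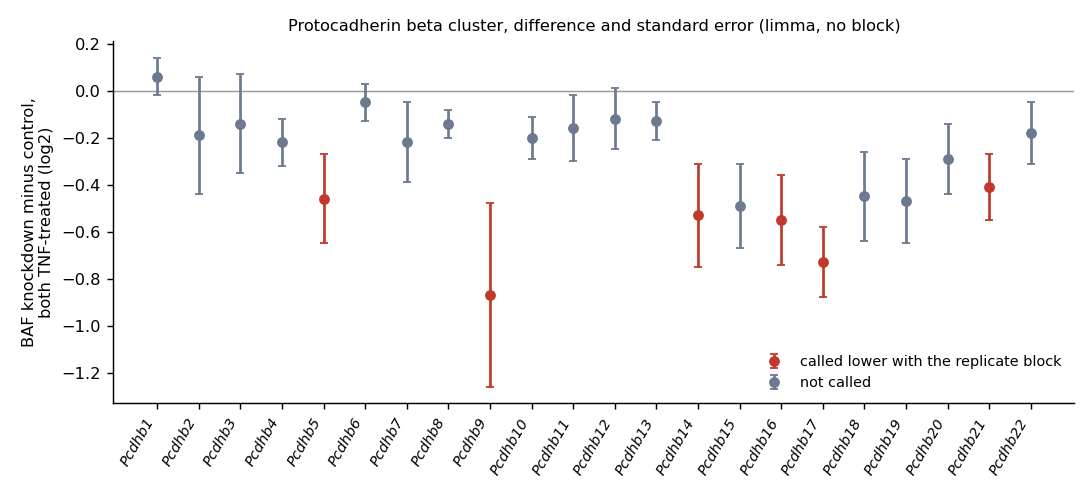
Difference between BAF-knockdown and control cells, both TNF-treated, on the log2 scale (y axis) for the 22 measured beta protocadherins (x axis, by gene number), with points at the limma estimate without the block and bars reaching 1 standard error either way, from 3 arrays per group. Red marks the 6 called lower with the replicate block. Pcdhb9 lies lowest at -0.87 and Pcdhb1 is the only gene above 0, at 0.06.

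Other adhesion genes showed few calls. Of 22 classical, type II and other cadherins, 0 were called by limma. Before adjustment, 2 were higher and 1 lower at p under 0.05 (3.69% and 4.75% of all genes). The block called 1 lower (2.33% of all genes). This was Cdh13, the membrane-anchored T-cadherin, which was lower (-0.33 ± 0.20, blocked adjusted p = 0.0366). Cdh3, which encodes P-cadherin, differed by -0.30 ± 0.12, Cdh20 by 0.19 ± 0.07 and Cdh2, which encodes the N-cadherin that partners Pcdh19, by 0.15 ± 0.05. Of 8 measured large cadherins of the Fat, Dachsous and Celsr families, 0 were called in either fit. In the limma fit, 1 was higher at an unadjusted p under 0.05, namely Fat1 (0.19 ± 0.07). Fat4 had the largest difference (0.28 ± 0.17) but did not pass that limit. Of 11 catenins and plakophilins, which link cadherins of cell junctions to the cytoskeleton, 0 were called by limma, with 2 higher and 1 lower before adjustment, and the block called Jup, which encodes plakoglobin, lower (-0.45 ± 0.20, blocked adjusted p = 0.0165). Of 10 measured genes of the WAVE regulatory complex and of 9 known protocadherin partners, 0 were called in either fit. At an unadjusted p under 0.05 there were 0 of the former and 1 of the latter, the Wnt receptor Fzd7 (-0.33 ± 0.08). After TNF-α, 0 genes of any of these lists, protocadherin lists included, were called in either fit, while 1 large cadherin and 1 WAVE gene were lower at an unadjusted p under 0.05, as were 1.22% of all genes.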

How the data were processed

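Total RNA of 9 cultures was hybridised to Affymetrix mouse Gene 1.0 ST arrays. The authors deposited log2 signals made by RMA, which corrects the background, puts the arrays on 1 distribution and combines the probes of each transcript cluster. The study's reporting summary names the affy package of Bioconductor, and no annotation build is named in the sources used here. Precision is limited by the number of arrays, which have no read depth. Of 27024 rows, 21319 had 1 gene symbol, 1430 several and 4275 none, and the row with the highest mean was kept for each of 19698 genes. Differences were tested across all genes with limma 3.58.1 in R 4.3.3 (lmFit, eBayes, 1 mean per group over 9 arrays, 6 residual degrees of freedom, two-sided, Benjamini-Hochberg), after the code was tested on simulated data. According to the methods, replicates were made on different days. Deviations of same-numbered arrays from their group means correlated at 0.21 to 0.724, and those of other pairs at -0.566 to 0.0111, so the arrays were treated as paired by number and a blocked fit (4 degrees of freedom) was added. Alternatives left out arrays, averaged rows, dropped dim genes, centred or weighted arrays, used a trended robust prior, the 6 arrays compared alone, or Student's test with a minimum difference. The methods use that test with a limit of 0.35 for TNF. For gene activation in TNF-treated fibroblasts the paper lists public arrays of another series, so here the test was applied to other samples. For the knockdown they state a limit of 0.3 and no test, so the test was added here. The named genes were the 9 members, Smarca4 and Smarca2, up to 3 genes per list (called ones first, then by size of the knockdown difference), and the 8 genes most correlated with Pcdh7 and with Pcdh19. The 5 other non-clustered genes, Cdh2, Pcdhb1, Thy1, Col1a2 and the neighbouring genes were named besides, after their values were seen. The members, lists and tests were chosen with earlier results of these data known.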

Additional observations from a re-analysis of the deposited data

How the results depend on the processing

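In the knockdown comparison, 1 member was called without the block. The count was 2 with the replicate block, with the mean of a symbol's rows, with median centring, with array weights, with the trended robust prior and with Student's test unadjusted and a minimum difference of 0.3 (Pcdh7 and Pcdh9 each time), and 0 with that test after Benjamini-Hochberg adjustment (Pcdh7 at 0.465). Leaving out arrays gave 0 to 3, with 3 (Pcdh7, Pcdh9 and Pcdh19) without knockdown array 2 or, in the blocked fit, all arrays numbered 2, and 0 in the blocked fit without those numbered 1, where no gene was called and Pcdh7 had an adjusted p of 0.0732. The difference of Pcdh7 stayed between -1.62 and -1.41 throughout, that of Pcdh9 between -0.87 and -0.70 and that of Pcdh19 between -0.67 and -0.31. Among all genes, the block moved the calls from 7 higher and 20 lower to 193 and 459, and after TNF from 27 and 0 to 72 and 6. No member was called after TNF under any alternative, and the block changed no call of a member other than that of Pcdh9. Signs turned only for members near 0, under array weights for Pcdh10 in the knockdown (-0.00156) and Pcdh8 after TNF (0.00874). With an array left out, the knockdown difference ran from -0.0568 to 0.0369 for Pcdh1 (0.0315 in a blocked fit), -0.016 to 0.0432 for Pcdh10 (-0.0153 in a blocked fit), -0.0107 to 0.0359 for Pcdh17 (-0.00455 in a blocked fit) and -0.00471 to 0.0248 for Pcdh20 (-0.0123 in a blocked fit), and that after TNF from -0.103 to 0.0496 for Pcdh7, -0.041 to 0.0541 for Pcdh8 (0.0541 in a blocked fit), -0.0595 to 0.0959 for Pcdh9, -0.0463 to 0.000117 for Pcdh10 (0.000562 in a blocked fit) and -0.0518 to 0.00347 for Pcdh17 (0.0259 in a blocked fit). With 3 arrays a group and no detection values, a change in a dim member could not be resolved from background.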

Other observations

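The longest uninterrupted stretch of purines (A or G on the strand of the gene) in the 300-base promoter window was 88 bases for Pcdh7. A stretch at least as long was found in 12 of the 32851 windows of the reference table, or 0.0365%, where the median window's longest stretch was 9 bases. For Pcdh9 it was 39 bases, reached by 0.323% of windows, and it lies after the transcription start, outside the letters printed above. Pcdh19 (11 bases) and Pcdh18 (10 bases) were near the median. This feature was looked for after the letters of the Pcdh7 promoter had been read, and its relation to the knockdown was not tested.

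The measured protein-coding genes next to Pcdh7, Pcdh9 and Pcdh19 were examined. By gene order in the RefSeq table of GRCm38.p6, Pcdh7 lies between Stim2 (0.07 ± 0.05 in the knockdown, adjusted p = 0.824) and G6pd2 (-0.19 ± 0.08, adjusted p = 0.546), and Pcdh9 between Pcdh20 (0.01 ± 0.05, adjusted p = 0.986) and Spertl (0.11 ± 0.06, adjusted p = 0.763). Pcdh19 lies between Diaph2 (0.04 ± 0.08, adjusted p = 0.952) and Tnmd (0.00 ± 0.05, adjusted p = 0.997). None of these neighbours was called in the limma fit without or with the block. The TNF-treated control and knockdown means of Pcdh20 (5.89 and 5.9), Spertl (5.63 and 5.74) and Tnmd (6.4 and 6.4) lay below the first quartile of the arrays. A fall of these dim genes could hardly have been seen. Distances along the chromosome were not considered, and whether the falls extend to the surrounding regions was not tested. The neighbours were chosen by position after the members' values were known.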
